A study of Mus musculus with 47 samples.

Results

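The expression of 9 glycolysis enzymes was described in single induced pluripotent stem cells (iPSCs) of a mouse cross, with reads assigned to the maternal or the paternal genome. The members were chosen by name as enzymes of the pathway from glucose to lactate. Of the 10 enzymes listed, 9 were found by symbol among the 13947 genes of the allelic count table: Hk2, Gpi1, Pfkl, Pfkp, Aldoa, Pgk1, Pgam1, Pkm and Ldha. The remaining enzyme, Tpi1, had no row and was not analysed here. All 47 cells came from 1 plate. The iPSCs had been made from embryonic fibroblasts of a cross between a Mus female that carried an X-linked eGFP transgene and a Cast male, by lentiviral overexpression of OSKM (Oct4, Sox2, Klf4 and c-Myc), and the labels give their culture as mouse ESC medium with LIF and ascorbic acid, while the methods describe iPSC controls of the study as grown without the latter. The labels give the transgene, the reprogramming factors and the culture alike for all cells. The column names mark the Mus counts as X129, after the strain of the Mus SNPs, and the paper describes the iPSCs as female. The deposited column names placed 23 cells in the class bi_allelic, with reads from both X chromosomes (X-Mus X-Cast), 15 in cast, with X-linked reads from the Cast chromosome (X-Cast O-Mus), and 9 in mus, with X-linked reads from the Mus chromosome (X-Mus O-Cast). The authors made these classes from X-linked allelic shares. No label names separate cultures, so the plate is 1 sample, cells are not replicates of a class, and no test between classes was made.

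Glycolysis splits glucose into pyruvate in the cytosol and yields ATP and NADH, and lactate dehydrogenase returns the NADH to NAD+ by making lactate. Pluripotent stem cells and many other dividing cells are known for running this pathway at a high rate also where oxygen is present. Hypoxia-inducible factors (HIF) and Myc, which bind DNA sites with an ACGTG core or the E-box CACGTG, are textbook activators of its genes.

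The cells had totals of 71682 to 216451 allelic counts. Levels are given as counts of both alleles per 10000 allelic counts of the cell. Only reads over SNPs between the strains are counted, so a level depends on the number of SNPs in a gene beside its length, and levels per kilobase of exon order the genes only roughly. Pluripotency markers were present in every cell, with a summed level of 47.7 to 137 per 10000 over 19 listed genes. Of 16 markers of embryonic fibroblasts in the table, 8 had 0 counts in all cells, Pdgfra, Dcn and Lum among them, and Vim and Fn1 alone had a mean of at least 5 counts. Of 11 markers of primed or differentiating cells, 3 had 0 counts, and Dnmt3b alone had a mean of at least 5.

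The RefSeq promoter table (GRCm38.p6) held all 9 members, and the 250 bases before the start were searched on both strands for ACGTG and for the E-box CACGTG, which contains ACGTG on each strand. ACGTG was found before at least 1 start of 6 of the 9 members, and in 16.6% of all 32851 promoters of the table or before at least 1 start of 18.5% of its 27025 genes. CACGTG was found before 1 of the 9 members, Ldha, and in 6.0% of all promoters. The 5 windows below are shown because they hold such a core and overlap no annotated exon of the gene. They are written 5′ to 3′ on the strand of the gene, with each ACGTG or its complement CACGT in capitals. 
Ldha, chr7:46845554-46845803, plus strand: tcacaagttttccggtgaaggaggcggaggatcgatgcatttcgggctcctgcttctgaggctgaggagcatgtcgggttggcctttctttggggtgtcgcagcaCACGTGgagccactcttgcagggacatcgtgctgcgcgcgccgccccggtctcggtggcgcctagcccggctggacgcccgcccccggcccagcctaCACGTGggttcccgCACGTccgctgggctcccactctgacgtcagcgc
Pgk1, chrX:106186850-106187099, plus strand: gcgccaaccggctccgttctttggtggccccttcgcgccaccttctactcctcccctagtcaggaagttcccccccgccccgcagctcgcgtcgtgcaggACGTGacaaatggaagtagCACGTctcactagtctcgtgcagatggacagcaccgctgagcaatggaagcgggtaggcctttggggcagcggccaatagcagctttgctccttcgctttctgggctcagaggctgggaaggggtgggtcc
Aldoa, chr7:126799255-126799504, minus strand: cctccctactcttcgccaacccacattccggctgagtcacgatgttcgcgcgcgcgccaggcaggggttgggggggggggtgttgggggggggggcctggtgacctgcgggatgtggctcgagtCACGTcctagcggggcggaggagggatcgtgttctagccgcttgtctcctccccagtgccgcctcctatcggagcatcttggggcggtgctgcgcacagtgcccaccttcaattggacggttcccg
Hk2, chr6:82774455-82774704, minus strand: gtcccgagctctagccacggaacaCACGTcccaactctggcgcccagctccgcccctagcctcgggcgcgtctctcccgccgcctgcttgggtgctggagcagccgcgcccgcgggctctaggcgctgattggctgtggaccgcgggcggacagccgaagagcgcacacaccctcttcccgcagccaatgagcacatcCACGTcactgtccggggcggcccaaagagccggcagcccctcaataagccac
Pgam1, chr19:41911621-41911870, plus strand: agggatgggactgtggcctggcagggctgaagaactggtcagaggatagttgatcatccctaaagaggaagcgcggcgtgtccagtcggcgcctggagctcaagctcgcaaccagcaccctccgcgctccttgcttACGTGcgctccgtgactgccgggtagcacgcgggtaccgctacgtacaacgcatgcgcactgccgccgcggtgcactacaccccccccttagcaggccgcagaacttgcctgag

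In Ldha the E-boxes begin 145 and 48 bases before the start, and a further core begins at 34 bases. The cores of Pgk1 begin 150 and 131 bases before the start, those of Hk2 226 and 52 bases. Aldoa has 1 core at 126 bases and Pgam1 1 at 114 bases. Pkm had a core 75 bases before 1 of its starts, in a window that overlaps an exon. No ACGTG was found in the windows of Gpi1, Pfkl and Pfkp. These are matches of letters and show no binding.

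The first steps trap glucose and rearrange it. Hk2 encodes a hexokinase, which phosphorylates glucose, and lies on chromosome 6 from 82725025 to 82774454 on GRCm38. Its level was 0, 1.97 and 7.68 per 10000 in the lowest, the median and the highest bi_allelic cell, 0.136, 1.70 and 5.75 in cast cells and 0.468, 2.01 and 9.35 in mus cells. The classes overlapped almost entirely, and reads were found in 46 of the 47 cells. Gpi1 encodes glucose-6-phosphate isomerase (chromosome 7, 34201330 to 34230336). It had 0.521, 3.60 and 15.0 per 10000 in bi_allelic cells, 0.318, 2.03 and 5.99 in cast cells and 1.32, 2.06 and 5.03 in mus cells. The highest value belonged to 1 bi_allelic cell with 290 counts.

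Phosphofructokinase commits the sugar to glycolysis. Its liver-type subunit Pfkl (chromosome 10, 77986947 to 78010083) had 0.351, 2.80 and 6.50 per 10000 in bi_allelic cells, 0.408, 1.73 and 4.05 in cast cells and 0, 2.17 and 9.30 in mus cells. The mus cells lay on both sides of the other classes, with 3 of 9 cells below every cast cell and 3 above every cast cell. The platelet-type subunit Pfkp (chromosome 13, 6579768 to 6648777) had 1.19, 4.07 and 13.7 per 10000 in bi_allelic cells, 0.409, 2.13 and 8.83 in cast cells and 0.831, 4.49 and 11.2 in mus cells. Three-carbon sugars are then made by aldolase. Aldoa (chromosome 7, 126795234 to 126800751) had 8.41, 19.3 and 41.8 per 10000 in bi_allelic cells, 8.63, 17.5 and 44.1 in cast cells and 4.32, 16.5 and 46.2 in mus cells, with reads in every cell.

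In the second part of the pathway ATP is made. Pgk1 encodes phosphoglycerate kinase and is the X-linked member (chromosome X, 106187100 to 106203699). It had 0, 0.977 and 2.75 per 10000 in bi_allelic cells, 0, 0.890 and 3.21 in cast cells and 0, 0 and 0.536 in mus cells, where 2 of 9 cells had reads. Pgam1 encodes phosphoglycerate mutase (chromosome 19, 41911923 to 41918660) and had 0.281, 2.15 and 3.17 per 10000 in bi_allelic cells, 0.341, 1.88 and 2.78 in cast cells and 0.419, 1.51 and 2.11 in mus cells. Its cells were close together: the coefficient of variation of 0.414 was lower than that of all but 5.83% of 875 genes of a like mean count.

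Pkm encodes the pyruvate kinase that gives the M1 and M2 forms, which gene counts do not separate (chromosome 9, 59656368 to 59679375). It had 7.58, 17.2 and 34.9 per 10000 in bi_allelic cells, 5.15, 17 and 37.6 in cast cells and 10.4, 15.8 and 26.1 in mus cells. Ldha encodes the lactate dehydrogenase subunit that ends the path (chromosome 7, 46841475 to 46855627). It had 4.68, 28.6 and 68.7 per 10000 in bi_allelic cells, 0.0509, 21.5 and 63.1 in cast cells and 3.35, 25.6 and 70.8 in mus cells. Ldha was the most variable of the abundant members, with a coefficient of variation of 0.581, above 90.9% of 22 genes of a like mean.

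By mean count Ldha ranked 17, Aldoa 31 and Pkm 38 of all genes, with means of 504, 331 and 295 counts per cell. Per kilobase of exon the median levels were 8.15 per 10000 for Ldha, 6.37 for Aldoa and 3.39 for Pkm. They were followed by Pgam1 with 0.947, Gpi1 with 0.439, Pgk1 with 0.372, Pfkl with 0.339, Hk2 with 0.323 and Pfkp with 0.257. The middle 50% of cells of Gpi1 (0.296 to 0.598), Pgk1 (0.170 to 0.691), Pfkl (0.206 to 0.491), Hk2 (0.166 to 0.538) and Pfkp (0.140 to 0.465) overlapped, so these 5 were not separated beyond their spread over cells. That of Pgam1 (0.620 to 1.18) overlapped with Pgk1 and lay above the other 4. Aldoa (5.08 to 7.93) overlapped with Ldha (5.12 to 12.7), while Pkm (2.81 to 4.20) lay below both. Processed copies of Pgk1, Pgam1, Aldoa and Ldha exist in the mouse genome, and how reads shared with copies entered the allelic counts of these cells is not given in the sources used here, so these counts are uncertain to that extent.

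**Figure D1:**
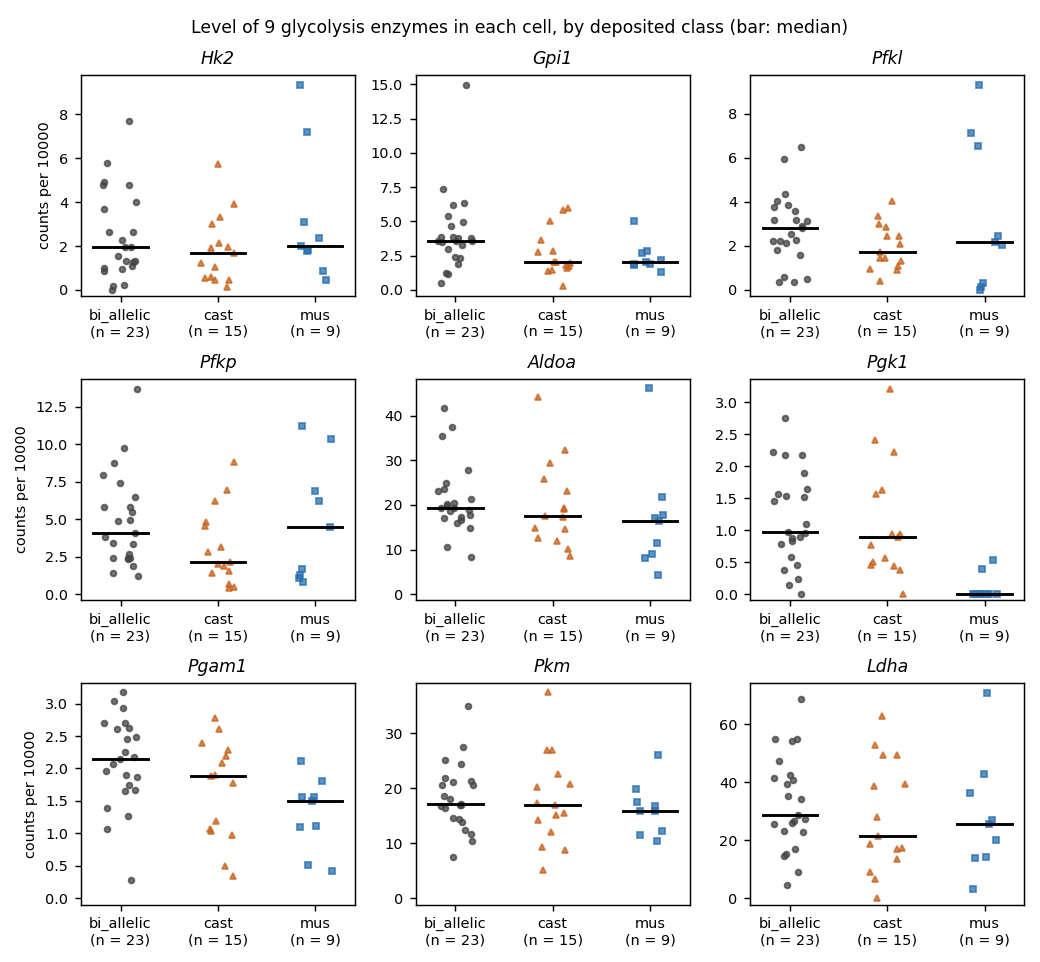
Counts per 10000 allelic counts (vertical axes, linear, 1 panel per gene) in each of 23 bi_allelic, 15 cast and 9 mus cells, 1 point per cell, with the median as a bar. The classes overlap for every gene, and Pgk1 stands at 0 in 7 of the 9 mus cells.

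The summed level of the members was 73.8 per 10000 at the median, or 0.738% of the allelic counts of a cell, and ranged 5.54-fold from 32.5 to 180. It was 33.1, 88.1 and 180 in the lowest, the median and the highest bi_allelic cell, 37.2, 62.0 and 154 in cast cells and 32.5, 67.9 and 175 in mus cells. Each class thus held cells near both ends of the range. The lowest cell, of the class mus, also had the lowest total of the plate, 71682 counts.

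One cast cell, in well C04, had 1 Ldha count among 196630 allelic counts, a level of 0.0509 per 10000. The next lowest cell had 24 counts of Ldha and a level of 3.35. In the same C04 cell Aldoa had 199 counts (10.1 per 10000), Pkm 409 (20.8), and Eno1, the enolase that acts between Pgam1 and Pkm, 611 (31.1). The lactate dehydrogenase subunit Ldhb had 133 counts (6.76 per 10000), rank 44 of 47 from the lowest. Aldoa, Hk2 and Gpi1 each had rank 6 from the lowest in this cell, and Pkm rank 35.

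The share of Mus counts was then compared between members. For 4033 autosomal genes whose mean count was 5 or more, the median Mus share was 45.9%, the middle 50% of genes lay between 33.6% and 54.4%, and their pooled counts had a Mus share of 42.9%. The pooled share was 41.7% to 44.9% in single cells. Intervals below are 95% Clopper-Pearson intervals. They cover counting error only, since the reads carry no molecular identifiers and a read over several SNPs may be counted more than once.

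Of the 8 autosomal members, 6 had shares between 30.5% and 57.7%. The Mus share was 54.1% for Hk2 (51.8 to 56.4; 1826 counts), 41.2% for Pfkl (39.1 to 43.4; 2034 counts) and 57.7% for Pfkp (56.0 to 59.4; 3346 counts). It was 47.2% for Aldoa (46.4 to 48.0; 15548 counts), 30.5% for Pkm (29.7 to 31.3; 13856 counts) and 39.7% for Ldha (39.1 to 40.4; 23707 counts). Pkm was the most Cast-rich of these 6, with 20.8% of the autosomal genes lower. Its Mus share was under 50% in each of the 47 cells, and the other genes of chromosome 9 had 41.4%.

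Gpi1 and Pgam1 stood apart in opposite directions. Gpi1 had 74.0% Mus counts (72.3 to 75.7; 2598 counts), above 96.6% of autosomal genes, and a share over 50% in 39 of 45 cells with at least 10 counts. The other genes of chromosome 7 had 44.4%, and the other members on that chromosome, Aldoa and Ldha, had the lower shares given above. Pgam1 had 67 Mus and 1353 Cast counts, a Mus share of 4.72% (3.68 to 5.95), lower than in all but 3.87% of autosomal genes. A share of at most 10% was found in 6.00% of autosomal genes, and here in 1 of 8 members. The other genes of chromosome 19 had 45.2%. The shares of Gpi1 and Pgam1, and that of Pgk1 below, were not checked against the number of SNPs in the gene or against processed copies. Pgam1 had Mus reads in 22 of 47 cells, and 18 of its 67 Mus counts came from 1 cast cell with a share of 40.9%.

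Pgk1 was described by class, since its X-linked share is fixed by the class where 1 X is read. In bi_allelic cells it had 32 Mus and 424 Cast counts, a Mus share of 7.02% (4.85 to 9.76), while the other X-linked genes had 52.8% in the same cells. Of 131 X-linked genes whose mean was 5 counts or more in bi_allelic cells, which had a median share of 50.5%, 1 had a lower share, Reps2 with 0.717%. Mus reads of Pgk1 were found in 9 of 23 bi_allelic cells, and 15 of the 32 came from 1 cell, in well F01. On leaving out each cell in turn the lowest share was 4.07%. In cast cells 0 of 275 counts were Mus, which allows a share of up to 1.33% by the interval, and in mus cells 15 of 15 counts were Mus. The Cast allele had a mean level of 1.10 per 10000 in bi_allelic and 1.13 in cast cells, the Mus allele 0.0802 in bi_allelic and 0.103 in mus cells, from 32 and 15 counts. Mus reads of Pgk1 were thus few in both classes that carry a Mus X.

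Single cells differed in their share by more than counting would give. Over cells with at least 10 counts of the gene, the share ranged from 0% to 97.2% for Hk2, 36.9% to 100% for Gpi1, 0% to 100% for both Pfkl and Pfkp, and 29.3% to 65.8% for Aldoa. It ranged from 9.64% to 47.5% for Pkm and from 12.4% to 68.7% for Ldha. The variance over cells was 4.62 times the binomial value for Pkm, 8.21 times for Aldoa, 8.45 times for Hk2, 8.81 times for Gpi1 and 28.3 times for Ldha. This ratio grows with the counts of a gene and does not order the genes. Among the 3 abundant members the SD of the share over cells was 12.8 percentage points for Ldha, 8.52 for Aldoa and 6.69 for Pkm. A share of 100% was found for Gpi1 in 3 cells, and all other members had at most 1 such cell. Binomial values take each count as a separate molecule, and these counts are not separate molecules.

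**Figure D2:**
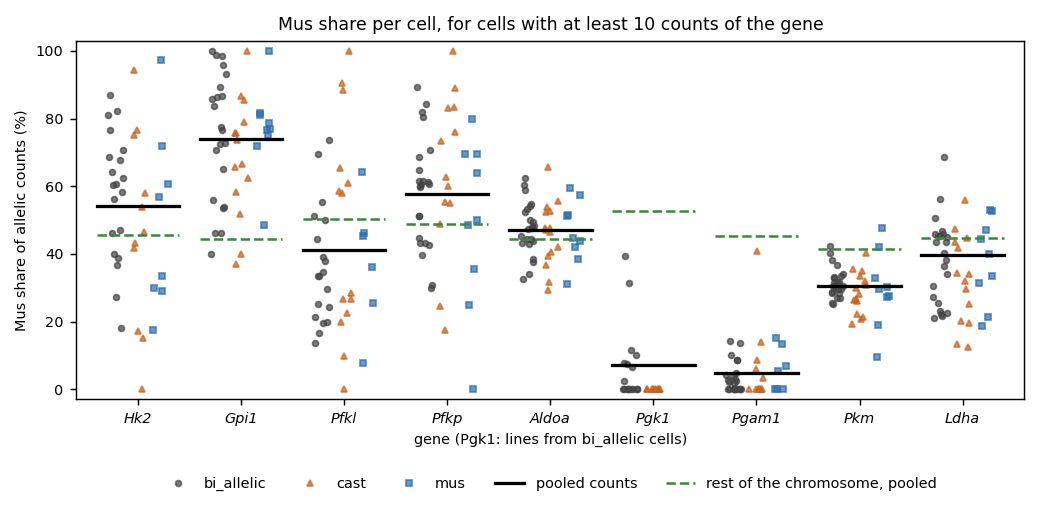
Mus share of allelic counts (vertical axis, percent) in each cell with at least 10 counts of the gene, with the pooled share of the gene as a black line and that of the other genes of its chromosome as a green dashed line. Gpi1 lies above its chromosome at 74.0%, and Pgam1 at 4.72% and Pgk1 at 7.02% in bi_allelic cells lie near 0.

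The next comparison asked whether the enzymes go together from cell to cell. Levels were put on the scale ln(1 + counts per 10000), and Pearson's r was taken over the 47 cells, as a description. Cells shared a plate, and the total of a cell enters all its genes. All 36 pairs of members had a positive r, with a median of 0.46 and a range of 0.13 to 0.71. An r of at least 0.4 was found in 27 of the pairs, and in 0.962% of 1067991 gene pairs at a mean count of 20 or more, whose median r was 0.01. Pgk1, with a mean of 15.9 counts, lies below that minimum.

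The closest pair was Aldoa with Ldha (r = 0.71, rho = 0.77). Gpi1 with Aldoa and Aldoa with Pgk1 had 0.65, Gpi1 with Pgk1 0.64 and Pgk1 with Pgam1 0.60. The loosest pair was Hk2 with Pgam1 at 0.13, followed by Hk2 with Pfkl at 0.27 and Pfkl with Pgk1 at 0.34. Aldoa and Ldha had an r of at least 0.4 with all 8 partners, Gpi1 and Pkm with 7, Pgk1 with 6, Hk2 and Pfkp with 5, and Pfkl and Pgam1 with 4. By this count Aldoa, Ldha, Gpi1 and Pkm were the most closely tied members, and Pfkl and Pgam1 the least. The order depended on the measure. Pgk1 had the highest median r with its partners (0.56), and Hk2 the lowest r with the score of the other members (0.48). It also depended on the cells: in bi_allelic cells alone Pfkl had 0.49 with Hk2 to 0.74 with Ldha over its 8 partners.

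**Figure D3:**
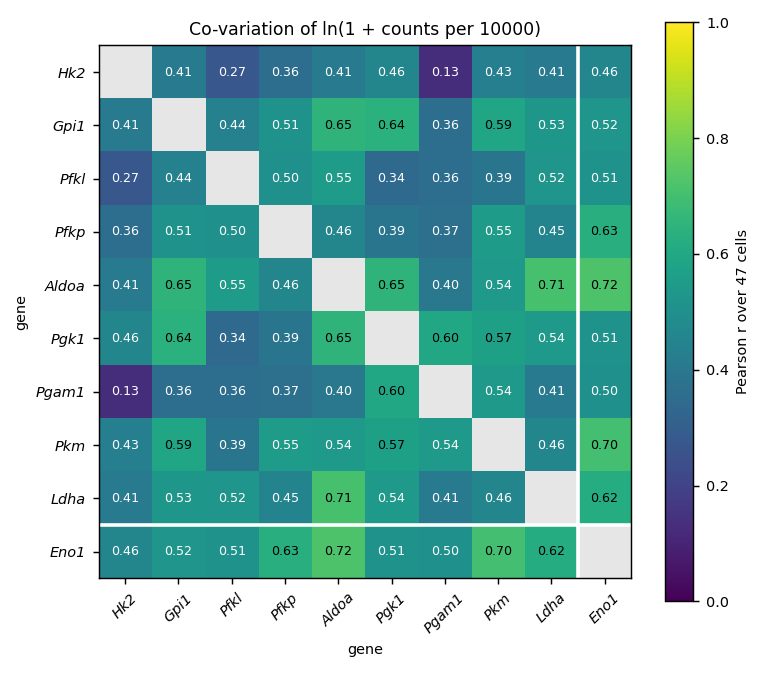
Pearson r over 47 cells of ln(1 + counts per 10000) for each pair of the 9 members and Eno1, with colour from 0 to 1 and values printed. All values are positive, from 0.13 for Hk2 with Pgam1 to 0.72 for Aldoa with Eno1.

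Within classes the median r of the pairs was 0.61 in the 23 bi_allelic cells, 0.56 in the 15 cast cells and 0.45 in the 9 mus cells, with 30, 23 and 20 of 36 pairs at 0.4 or more. It was 0.48 for deviations from class means, 0.48 for deviations from plate row means and 0.49 for deviations from plate column means. After thinning each cell to the lowest total it was 0.43, with 21 pairs. The mean z-score of the members had an r of 0.19 with the total of the cell, 0.41 with the number of genes with a read (2918 to 5799) and −0.36 with the mitochondrial share of counts (9.09% to 26.7%). It had an r of 0.37 with the summed pluripotency markers, 0.20 with the fibroblast markers and 0.10 with the markers of primed or differentiating cells. The part of these in the co-variation was not tested beyond the values given.

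The same was seen with alleles kept apart. For the 7 members other than Pgk1 and Pgam1, the 21 pairs had a median r of 0.41 between Cast alleles and 0.37 between Mus alleles. The 42 pairs of the Cast allele of one gene with the Mus allele of another had a median of 0.40 (0.13 to 0.72), so that genes went together across the parental genomes about as much as within one. Where the genes lie on different chromosomes, these medians were 0.41, 0.36 and 0.39. For the 3 pairs of Gpi1, Aldoa and Ldha on chromosome 7 they were 0.44, 0.60 and 0.54.

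The Cast and the Mus allele of the same gene also went together. Their r was 0.80 for Ldha, 0.76 for Aldoa, 0.73 for Pkm, 0.60 for Pfkp, 0.52 for Hk2 and 0.45 for Pfkl. It was 0.27 for Gpi1 and 0.13 for Pgam1 over all cells, and 0.07 for Pgk1 over bi_allelic cells. Of 1408 autosomal genes whose mean count was 20 or more, 22.9% had an r of at least 0.4, against 6 of the 8 autosomal members, and the median was 0.24. Among 194 genes whose mean count was 100 or more, the median was 0.36 and 40.7% reached 0.4, and the r of Ldha was exceeded by 4 of the 1408 genes. The members with a low r include both members with few Mus counts, Pgam1 and Pgk1.

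By the rule of likeness, the r of a gene with the mean z-score of the members over 47 cells, 1350 genes that are no members were ranked, those whose mean count was 20 or more with reads in at least 40 cells. Less abundant genes were left out of the ranking, also where their r was high. Their median r was 0.03, and 2.67% had 0.4 or more. The most similar was Eno1, enolase, which follows Pgam1 in the path, with an r of 0.79 and with 0.46 to 0.72 to the single members. Its level was 15.8, 32.7 and 68.4 per 10000 in the lowest, the median and the highest cell. Next came Shmt2, the mitochondrial serine hydroxymethyltransferase (0.69), Upp1, a uridine phosphorylase (0.66), Vdac1, a channel of the outer mitochondrial membrane (0.57), and Iars, an isoleucyl-tRNA synthetase (0.53). Within classes the r of Eno1 was 0.82, 0.83 and 0.85 in bi_allelic, cast and mus cells, and that of Shmt2 0.71, 0.69 and 0.63. The lowest values were those of Sf3b5, a subunit of the splicing factor SF3b (−0.57), Sssca1 (−0.54) and Pmm1, a phosphomannomutase (−0.47).

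**Figure D4:**
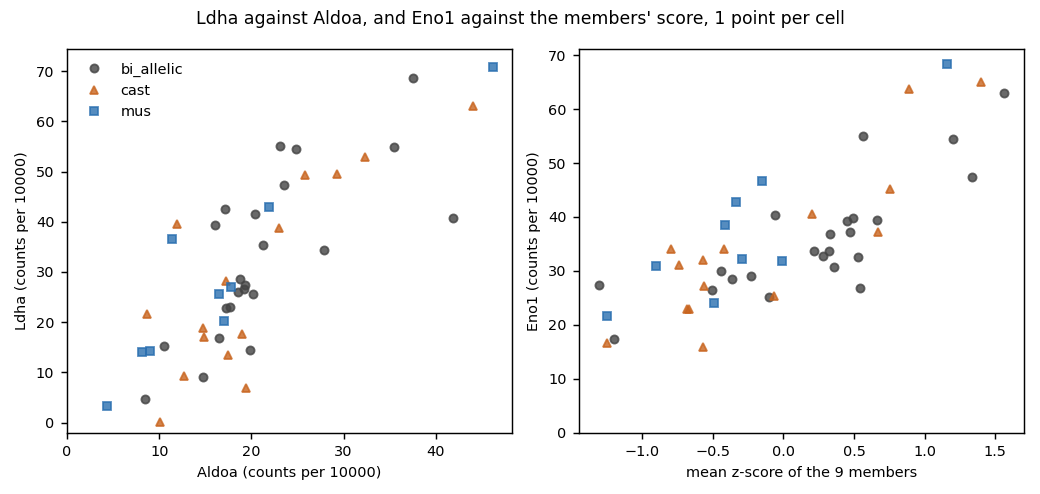
Left, Ldha against Aldoa in counts per 10000, and right, Eno1 in counts per 10000 against the mean z-score of the 9 members, 1 point per cell with its class. Ldha goes with Aldoa with an r of 0.71 and Eno1 with the score with an r of 0.79, both taken with levels on the ln scale, and 1 cast cell lies at 0.0509 for Ldha.

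Class differences were taken as ratios of mean levels over cells, and a gene was counted when the ratio was at least 1.5 either way. In cast over bi_allelic, all 9 members had a log2 ratio below 0 with all cells included, with a median of −0.33, against a median of 0.03 for autosomal genes. Past 1.5-fold lower were 2 members, Gpi1 with −0.62 (mean 2.71 against 4.15 per 10000) and Pfkp with −0.61 (3.19 against 4.88), and 0 were past it higher. This is 2 of 8 autosomal members, where 13.3% of autosomal genes were lower and 16.6% higher. Pfkl had −0.49, Hk2 −0.40, Pgam1 −0.33, Ldha −0.21, Aldoa −0.09, Pgk1 −0.06 and Pkm −0.03. X-linked genes had a median of −0.83 in this comparison, and Pgk1 lay above 88.8% of them. Counts of Pgk1 were mostly Cast in bi_allelic cells too, so its ratio is close to that of the Cast allele alone, 0.04. The cells overlapped for all 9 members, with 11 of 15 cast cells below the bi_allelic median for Gpi1 and 10 of 15 for Pfkp.

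The lower levels in cast cells were not stable. On leaving out 1 cell, Pgk1 and Pkm each reached 0.04, above 0. Leaving out any of 10 cells took Gpi1 within 1.5-fold, and any of 13 cells did so for Pfkp. Without the bi_allelic cell in well B03 Gpi1 had −0.44, and without the one in F04 Pfkp had −0.49. Without the cast cell in A02 Hk2 (−0.63) and Pfkl (−0.61) passed as well. The classes were spread unevenly over the plate: 7 of the 8 cells of plate column 3 were bi_allelic, and this column had the highest median score of the members, 0.34. In plate columns 1 to 3, with 12 bi_allelic and 5 cast cells, the median log2 ratio of the members was 0.16, and in plate columns 4 to 6, with 11 and 10 cells, it was −0.49. The sign of the median thus differed between the sides of the plate, and class and plate position cannot be told apart from the pooled value. Cell-type markers also moved with the classes. Of 18 pluripotency markers, 7 were at least 1.5-fold lower and 1 higher in cast over bi_allelic, and 8 lower and 2 higher in mus over bi_allelic. Of autosomal genes 13.3% were lower and 16.6% higher in the former, and 18.0% and 19.4% in the latter. The summed levels of all 19 listed markers were 65.4 to 137 in bi_allelic, 50.3 to 132 in cast and 47.7 to 123 in mus cells. Of the fibroblast markers, Vim (1.37) and Fn1 (1.16) had higher log2 ratios in cast over bi_allelic, and the summed level was 1.52 to 15.4 in bi_allelic, 4.36 to 31.3 in cast and 0.754 to 13.7 in mus cells. Their part in the class ratios of the members was not tested.

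In mus over bi_allelic, which shares the bi_allelic cells with the comparison above, 3 members were past 1.5-fold lower and 0 higher. Pgk1 had −3.52, or 11.5-fold lower (mean 0.103 against 1.18 per 10000). With 15 counts in 2 of the mus cells, this value was −4.60 to −3.35 on leaving out each cell, and −0.92 as a difference of mean ln values. The Cast allele of Pgk1 had a mean level of 1.10 in bi_allelic cells and 0 counts in mus cells. Its Mus allele had 0.0802 and 0.103, so the ratio reflects absent Cast reads and not fewer Mus reads. The other members past 1.5-fold lower were Gpi1 with −0.77 (2.43 against 4.15) and Pgam1 with −0.69 (1.30 against 2.09). Among autosomal members this is 2 of 8, beside 18.0% lower and 19.4% higher over autosomal genes, and the median of all members was −0.21. All 9 mus cells lay below the bi_allelic median for Pgk1 and for Pgam1, and 8 of 9 for Gpi1. Without the mus cell in B01 Pgam1 had −0.58, and without the one in E04 −0.57, both within 1.5-fold. Without the mus cell in G02, Aldoa also passed, at −0.69 instead of −0.33. Of X-linked genes 67.3% were at least 1.5-fold lower in mus cells. Among the 131 X-linked genes above the median log2 ratio was −0.91, and 8 had a lower ratio than Pgk1.

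The 6 other members had log2 ratios of 0.38 for Hk2, 0.27 for Pfkl, 0.00 for Pfkp, −0.18 for Pkm, −0.21 for Ldha and −0.33 for Aldoa. The ratios above 0 were not stable in sign: on leaving out 1 cell the lowest value was −0.01 for Hk2 and −0.09 for Pfkl, and by medians over cells Pfkl had −0.36. In plate columns 4 to 6, which held 3 mus cells, the median of all members was −1.09, and in columns 1 to 3, with 6, it was −0.06.

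In mus over cast, the classes with a single X, Hk2 (0.78), Pfkl (0.76) and Pfkp (0.62) were past 1.5-fold higher and Pgk1 (−3.46) lower. Of autosomal genes 16.5% were higher, and of X-linked genes 22.4% were lower. Pgk1 had −4.54 to −3.26 on leaving out each cell and −0.86 as a difference of mean ln values. Its counts were all Cast in cast cells and all Mus in mus cells, so this ratio compares the Mus with the Cast allele. Hk2 and Pfkl rested on few mus cells: Hk2 had 0.39 without the cell in E04, which had the lowest total, and 0.54 without the cell in G02. Pfkl had 0.40 without B01, 0.54 without G02 and 0.58 without C01, while Pfkp, near the limit, was within 1.5-fold without any of 12 cells of either class. By plate columns, Hk2 had −0.17 in columns 1 to 3 and Pfkl −0.53 in columns 4 to 6. Aldoa, at −0.25 with all cells, had −0.60 without the mus cell in G02. Ldha (−0.01), Pkm (−0.15) and Gpi1 (−0.16) were close to 0, and Pgam1 had −0.36.

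**Figure D5:**
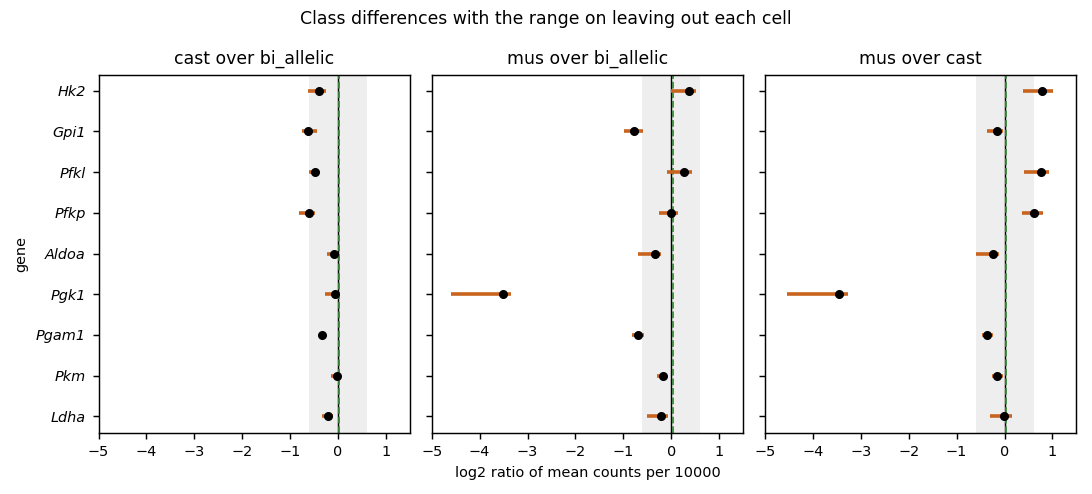
Log2 ratio of mean counts per 10000 (horizontal axis) for the 9 members in the 3 class comparisons, with the range on leaving out each cell as an orange bar, 1.5-fold either way as a grey band and the median of autosomal genes as a green dashed line. Pgk1 lies at −3.52 and −3.46 where mus cells are compared, and most other points lie within or at the edge of the band.

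Other genes of the pathway were taken from lists, and only genes whose mean was 5 counts or more are counted. Over all such genes that are no members, 1.98% had an r of at least 0.4 with the score of the members. Of the other steps and isoenzymes, 2 of 5 did, Eno1 (0.79) and Gapdh (0.40), the dehydrogenase between aldolase and Pgk1. Gapdh had a Mus share of 97.8%, opposite to Pgk1 and Pgam1, and has many processed copies. Ldhb, the other main lactate dehydrogenase subunit, had an r of −0.06 and log2 ratios of 1.73 in cast and 1.22 in mus over bi_allelic cells, and Aldoc of 1.11 and 1.89, from reads in 21 cells. These were the 2 of 5 genes of that list past 1.5-fold, both higher, beside 16.6% of autosomal genes higher in cast and 19.4% in mus over bi_allelic.

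Of 5 transport genes, 3 had an r of at least 0.4, led by the lactate exporter Slc16a3 (0.59). The glucose transporter Slc2a1 had a mean level of 1.51 per 10000 in bi_allelic, 0.417 in cast and 0.539 in mus cells, log2 ratios of −1.86 and −1.49, while Slc16a1, a lactate carrier, had 0.22 and −0.32. In mus over bi_allelic 3 of the 5 were past 1.5-fold lower, beside 18.0% of autosomal genes, and in cast over bi_allelic 1, beside 13.3%. Of 10 other HIF targets 6 had an r of at least 0.4, the highest being Bnip3, a mitophagy receptor (0.67). Past 1.5-fold were 5 lower and 1 higher in cast over bi_allelic, where 13.3% of autosomal genes were lower and 16.6% higher, and 7 lower and 0 higher in mus over bi_allelic, where these shares were 18.0% and 19.4%. The lowest in both was Ndrg1 with −3.07 and −1.97, with reads in 13 of 47 cells, and the highest was Ero1l with 1.29 in cast and Bnip3 with −0.03 in mus over bi_allelic. Hif1a had a mean of 3.45 counts, below the minimum, and 0 of 3 genes of the list of transcription factors and their regulators had an r of 0.4.

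Of 5 genes of serine synthesis, which branches from 3-phosphoglycerate, 3 had an r of at least 0.4, Shmt2 (0.69) and Psat1 and Phgdh, with 0 past 1.5-fold in cast over bi_allelic and 1 higher in mus over bi_allelic, Psph with 0.92, which is near the 19.4% of autosomal genes higher. Of 6 genes of the pentose phosphate pathway 1 did, the transketolase Tkt (0.49). Of 5 genes of the glycerol, glycogen and hexosamine branches 1 did, Pgm2 (0.65), a phosphoglucomutase. Among 3 regulators of flux 1 did, Pdk3 (0.45), a kinase of pyruvate dehydrogenase, while Tigar, which lowers fructose-2,6-bisphosphate, had −0.42. Pdk3 is X-linked and had log2 ratios of −0.87 in cast and −2.03 in mus over bi_allelic, where X-linked genes had medians of −0.83 and −0.79. The part of the classes in its r was not tested. Of gluconeogenesis 1 gene was tested, Pck2 (0.44). None of 18 genes of the citric acid cycle and none of 4 of pyruvate entry reached 0.4, and their median r was 0.16 and 0.05.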

How the data were processed

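Single cells were sorted into a GpC methylase mix, mRNA was captured as in G&T-seq, and Nextera XT libraries were read from 1 end. The submitters' processing notes name mm10, STAR 2.5.3a and SAMtools. The methods give, for allele-specific Smart-seq2 reads, alignment to an N-masked genome, assignment with SNPsplit, counts at SNP positions and genes with at least 4 SNPs. They name no separate steps for these cells, so like steps are assumed here. The authors deposited unnormalized allelic counts per gene, with 2 columns per cell, whose names give the class. The depth was 71682 to 216451 counts per cell, so a gene at 1 per 10000 rests on few reads and single-cell shares were given from 10 counts.

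The software was numpy 2.4.6, scipy 1.17.1, pandas 2.3.3 and matplotlib 3.10.9 in Python 3.11.15. Levels are counts per 10000 allelic counts of a cell. Class ratios used a minimum mean of 5 counts per gene, correlations a minimum of 20 and ln(1 + level). Positions are from GENCODE M21 (13945 of 13947 genes matched by symbol), sequences from RefSeq. Because all cells come from 1 plate, no p-value was computed. A jackknife standard error, from leaving out each cell in turn, served only as a limit for judging alternative settings. It treats cells as replicates and measures no spread between cultures. Dixon's ratio within the mus class was used to pick out single cells, not as a test of a class. The members and lists were chosen with earlier results of these data known. Named genes were the members, genes of the lists with the largest or smallest ratio, level or r, and the 5 most and 3 least similar genes; Pdgfra, Dcn, Lum, Vim, Fn1, Dnmt3b, Hif1a, Reps2, Gapdh, Psat1 and Phgdh were named after their values were seen. Alternatives covered the scale, summary, filter, depth, cells, fold and plate position. Scripts were tested on simulated data.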

Additional observations from a re-analysis of the deposited data

Results flagged for a closer look

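Within the 9 mus cells, the only class of 10 cells or fewer, the levels and the Mus shares of the members were searched for a cell far from the others by Dixon's ratio. Of 17 such groups of values 2 gave a ratio above the critical value, and chance gives about 1 in 20. Both belonged to the cell in well G02. Its Gpi1 level was 5.03 per 10000, where the next mus cell had 2.83 and the median was 2.06. Its Aldoa level was 46.2, where the next had 21.9 and the median was 16.5. The same cell had the highest Ldha of the plate (70.8) and the highest summed level of its class (175). Without it, the log2 ratio of Aldoa in mus over bi_allelic cells was −0.69 in place of −0.33.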

How the results depend on the processing

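All 30 alternative values for levels and all 87 for allelic shares were counted as unchanged. For a level or the share of a gene this means within 1 SD over cells of the value reported. That is a wide measure, which says little where the SD exceeds the value. The 87 include counts of members with almost only Cast reads, which have no SD. This count was 2 with all 9 members, and 1 with the 8 members counted within each class alone. The Mus share of Pgk1 in bi_allelic cells, 7.02% with an SD of 11.6, was 4.07% at the lowest on leaving out each cell and 0 by the median over cells. That of Pgam1, 4.72% with an SD of 7.49, had a median over cells of 2.08%. Of 72 values for co-variation 67 were counted as unchanged. The limit was 1 SD for the median r of the pairs and 0.1 for the alleles of one gene, while counts of pairs or members have no SD. The median r of the pairs was 0.42 to 0.52 on leaving out each cell in turn (21 to 32 pairs at 0.4 or more). It moved to 0.61 in bi_allelic cells alone and to 0.56 in cast cells alone. The number of members whose alleles had an r of at least 0.4 was 6 under every setting tried.

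The class ratios depended on the setting: 253 of 308 values were counted as unchanged. The limit was 1 jackknife standard error for a log2 ratio and 1.5 times for a count or percentage. This limit can exceed the range on leaving out each cell. By medians in cast over bi_allelic, Gpi1 had −0.83, outside its range of −0.75 to −0.44, and was still counted as unchanged. In cast over bi_allelic, the number of members at least 1.5 times lower was 2, but 3 by medians, 1 with size factors, 0 with mean ln values, 0 with a 2-fold limit and 0 to 4 on leaving out each cell, and the median log2 ratio was then −0.40 to −0.25. In mus over bi_allelic it was 3, but 2 by medians, 1 with mean ln values, 1 with a 2-fold limit and 2 to 4 on leaving out each cell. In mus over cast the number higher was 3, but 1 by medians, 0 with mean ln values, 0 with a 2-fold limit and 0 to 3 on leaving out each cell, and the number lower was 1 to 2. The cause was not tested.

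A split by plate columns was added after the data were seen. In columns 1 to 3, cast over bi_allelic had a median of 0.16 with 1 member higher and 0 lower, mus over bi_allelic had 1 higher and 2 lower, and mus over cast 1 higher and 1 lower. In columns 4 to 6, cast over bi_allelic had 4 lower, mus over bi_allelic a median of −1.09 with 6 lower, and mus over cast a median of −0.53 with 1 higher and 4 lower. Among members past 1.5-fold, the sign turned for Pfkp in cast over bi_allelic (0.04 in columns 1 to 3), and in mus over cast for Hk2 (−0.17 in columns 1 to 3) and Pfkl (−0.53 in columns 4 to 6). Members within 1.5-fold changed sign as well, such as Hk2 (0.61) and Pgk1 (0.36) in cast over bi_allelic in columns 1 to 3, and Pfkl (−1.16) in mus over bi_allelic in columns 4 to 6. With genes down to 1 read, the share of autosomal genes past 1.5-fold was 30.4% lower and 27.8% higher in cast over bi_allelic, 35.8% lower and 26.8% higher in mus over bi_allelic, and 31.7% lower and 25.8% higher in mus over cast. No paired analysis was possible because the results come from no test and no number in the labels pairs cells across classes.

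The number of cells of the mus class, 9, and the mean counts of Pgk1 (15.9) and Pgam1 (30.2) limit what can be read from their ratios and shares.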
